A study of Homo sapiens with 8 samples.

Results

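The 10 genes described here encode carriers that move amino acids across the plasma membrane, together with the heavy chain that brings some of these carriers to the cell surface. They were the rows of the FPKM table whose gene name was SLC3A2, SLC7A5, SLC7A6, SLC7A1, SLC1A4, SLC1A5, SLC38A1, SLC38A2, SLC6A9 or SLC43A1. Each name had 1 gene identifier, so the set held 10 of the 65975 gene identifiers in the table. A673, an established Ewing Sarcoma cell line, was grown in medium supplemented with non-essential amino acids and exposed to 2 μM JIB-04 or to the DMSO vehicle for 36 hours. JIB-04 inhibits several Jumonji-domain histone demethylases, and the comparison asked how it changes the transcriptome. PolyA RNA of 4 JIB-04 and 4 vehicle libraries was sequenced, all from this single line, with no other allele or agent that separates the groups. Per the methods each treatment was done in quadruplicate, and the p-values below cover the spread among these libraries of 1 line.

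Amino acids cannot cross the plasma membrane unaided, and cells combine carriers of different kinds to supply protein synthesis. Exchangers such as those of the SLC7A5 and SLC1A5 kind trade an amino acid inside the cell for another outside, whereas sodium-coupled importers of the SLC38 family load the cell with small neutral amino acids against a gradient. Several of these genes are known targets of ATF4, a transcription factor translated when amino acids are scarce or when other stresses lead to phosphorylation of eIF2α. ATF4 binds a composite element called CARE, and MYC, another known regulator of transporter genes, binds the E-box.

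Short sites of these kinds in the promoters are shown first, because both regulators were measured in the same libraries. All 10 genes matched the RefSeq promoter table (GRCh38.p14), with 17 windows of 300 bases that start 250 bases before a transcription start. CARE was searched as TGATGNAA and the E-box as CACGTG, on both strands. CARE letters were present in 5 of the 17 windows, against 3.62% of all 35116 windows in the table, and E-box letters in 3 of the 17 windows, against 7.26% of all windows. A match describes letters only and is not evidence of binding. The sites below are 30 bases long, written 5′ to 3′ on the strand of the gene with the motif in capitals, and capitals that read as the reverse complement of CARE lie on the opposite strand.
SLC3A2, CARE, chr11:62881719-62881748, plus strand: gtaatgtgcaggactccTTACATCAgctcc
SLC7A1, CARE, chr13:29595663-29595692, minus strand: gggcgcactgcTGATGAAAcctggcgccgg
SLC1A4, CARE, chr2:64989381-64989410, plus strand: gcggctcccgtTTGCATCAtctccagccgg
SLC1A5, CARE, chr19:46784893-46784922, minus strand: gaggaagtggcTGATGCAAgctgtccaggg
SLC38A1, CARE, chr12:46266502-46266531, minus strand: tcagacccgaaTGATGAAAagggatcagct
SLC7A5, E-box, chr16:87869619-87869648, minus strand: gccggacgacgCACGTGctccgagctgggc
SLC43A1, E-box, chr11:57515796-57515825, minus strand: agcgggcgagtCACGTGcgcgtgaaactcg

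Counting from the first transcribed base as 1, the CARE letters lay at 38 to 45 in SLC3A2, 8 to 15 in SLC7A1, -7 to 1 in SLC1A4, -97 to -90 in SLC1A5 and -4 to 4 in SLC38A1. SLC3A2, SLC1A4, SLC1A5 and SLC38A1 each had more than 1 window, and only 1 window of each held CARE letters. For SLC38A1, the transcribed end of that window was not found in a GENCODE transcript of the gene. The E-box letters shown lay at -130 to -125 in SLC7A5 and -112 to -107 in SLC43A1. A pair of shorter cores was also searched. ACGTG, the hypoxia response core that also lies inside CACGTG, was present in 6 of the 17 windows, against 21.4% of all windows, and GCGTG, the xenobiotic response core, in 11 of the 17 windows, against 36.5% of all windows. No window of SLC38A2 or SLC6A9 held any of the 4 motifs, and sequence outside the windows, such as introns, was not searched. The 5 genes with CARE letters did not share a direction of change. SLC3A2, SLC38A1 and SLC1A5 were higher with JIB-04, and SLC7A1 and SLC1A4 were lower, by the values that follow. Whether these letters bear on the changes was not tested.

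The files gave levels as FPKM, which are scaled for transcript length, so that the level of one gene can be set beside that of another. Depth in reads was not given. It was judged from the most frequent ratio of FPKM to vehicle library 1 among genes averaging under 0.2 FPKM. By this, the JIB-04 libraries had 0.766 to 0.927 and the vehicle libraries 0.8293 to 1 of the depth of vehicle library 1. In the libraries set against it, that ratio held for only 8.92% to 11.3% of the genes compared, so these depths are rough. Summed FPKM were 1175407 to 1237186 in JIB-04 libraries and 1346289 to 1370436 in vehicle libraries. Mitochondrially encoded mRNA made up 3.60% to 4.33% of these sums in JIB-04 libraries and 9.60% to 10.2% in vehicle libraries. All 6 Ewing sarcoma markers were present in both groups, with summed levels of 1199 to 1290 FPKM with JIB-04 and 1802 to 1861 FPKM with vehicle. CD99 had 566 to 622 FPKM with JIB-04 and 1135 to 1199 FPKM with vehicle, whereas LIPI and FLI1 were higher in every JIB-04 library than in any vehicle library. Counts in brackets are of markers at 1 FPKM or more in every library of a group. The endothelial markers (none of 3) summed to 1.67 to 2.05 FPKM with JIB-04 and 0.447 to 1.13 FPKM with vehicle. Among them PECAM1 had 0.746 to 1.68 FPKM with JIB-04 and 0.330 to 0.809 FPKM with vehicle. The leukocyte markers (1 of 4, ITGAM) summed to 2.17 to 3.68 and 0.328 to 0.507 FPKM. The epithelial markers (2 of 4, both keratins) summed to 304 to 321 and 316 to 338 FPKM. The neuronal markers (2 of 3) summed to 54.6 to 59.5 and 59.5 to 62.3 FPKM. Within the last 2 lists the genes moved apart: KRT8 (69.4 to 77.2 FPKM with JIB-04 and 21.9 to 25.3 FPKM with vehicle) and SNAP25 (14.1 to 17.3 and 3.85 to 4.28 FPKM) were higher with JIB-04, and KRT18 (233 to 248 and 294 to 314 FPKM) and SYP (36.7 to 45.4 and 55.6 to 57.9 FPKM) were lower. The part of these markers in the results was not tested. In bulk RNA, fewer cells that express a gene and less RNA of it per cell cannot be told apart.

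Of the 10 transporter genes, 6 were higher with JIB-04 and 4 were lower (limma on log2(FPKM + 0.5), Benjamini-Hochberg adjusted p under 0.05 over the 17460 genes whose level averaged 1 FPKM or more). JIB-04 changed most of the transcriptome: 72.2% of all genes tested passed, 34.2% higher and 38.0% lower, so that passing the test is not by itself a property of these genes. The median log2 fold change was 0.33 over the 10 genes and -0.07 over all genes tested. Changes of at least 2-fold were found for SLC3A2, SLC43A1 and SLC38A2 among the higher genes, against 13.1% of all genes, and for SLC6A9 among the lower genes, against 11.8% of all genes. The JIB-04 and vehicle libraries did not overlap for any of the 10 genes, as was the case for 67.3% of all genes. For each gene the exact two-sided permutation test over libraries gave p = 0.0286, the smallest that 4 against 4 libraries allow.

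**Figure D1:**
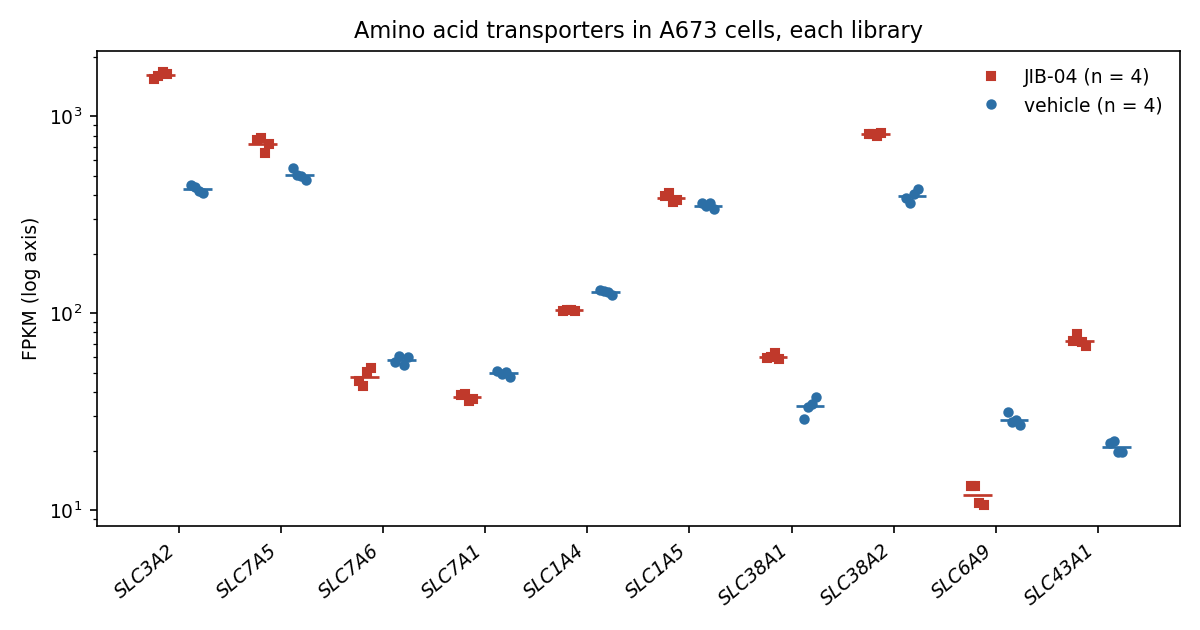
FPKM of the 10 genes (log axis) in each of the 4 JIB-04 libraries (red squares) and 4 vehicle libraries (blue circles), with the group mean as a line. The widest gaps are those of SLC3A2 (means 1619 FPKM with JIB-04 and 428 FPKM with vehicle) and SLC43A1 (72.4 and 21.0 FPKM), and SLC1A5 has the narrowest gap.

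SLC3A2 encodes the heavy chain 4F2hc (CD98), a glycoprotein that carries no amino acids itself but binds light chains of the SLC7 family and brings them to the surface. The gene (ENSG00000168003) lies on chromosome 11 from 62856102 to 62888875, plus strand. SLC3A2 had 1558, 1607, 1676 and 1634 FPKM in the JIB-04 libraries, against 448, 438, 418 and 407 FPKM in the vehicle libraries. The lowest JIB-04 library was far above the highest vehicle library. SLC3A2 averaged 1619 ± 49.2 FPKM with JIB-04 and 428 ± 18.8 FPKM with vehicle (SD, n = 4 each), a log2 fold change of 1.92 (SE 0.04, 95% interval 1.83 to 2.01, limma adjusted p = 1.47e-09), and ranked 746 among all genes by size of rise. With JIB-04 it was the most abundant of the 10 genes.

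SLC7A5 encodes LAT1, the light chain that takes up leucine and other large neutral amino acids in exchange for amino acids from inside the cell (ENSG00000103257, chromosome 16, 87830023 to 87869488, minus strand). SLC7A5 had 762, 776, 654 and 723 FPKM in the JIB-04 libraries, against 545, 502, 497 and 478 FPKM in the vehicle libraries. All JIB-04 libraries were above all vehicle libraries, with JIB-04 library 3 the nearest. The means were 729 ± 54.3 FPKM with JIB-04 and 505 ± 28.3 FPKM with vehicle (SD, n = 4 each), a log2 fold change of 0.53 (SE 0.06, adjusted p = 4.11e-05). With a trend on GC content removed the SLC7A5 difference was 0.87. SLC7A5 has near copies in the genome, the pseudogenes SLC7A5P1 and SLC7A5P2, and reads could be split between them.

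SLC7A6, which encodes the y+LAT2 light chain that exports arginine in exchange for neutral amino acids, moved the other way (ENSG00000103064, chromosome 16, 68264516 to 68301823, plus strand). SLC7A6 had 45.1, 42.6, 50.2 and 52.8 FPKM with JIB-04, against 56.3, 60.7, 54.3 and 59.7 FPKM with vehicle. The groups did not overlap but came close, at 52.8 FPKM in JIB-04 library 4 and 54.3 FPKM in vehicle library 3. The log2 fold change of SLC7A6 was -0.28 (SE 0.07, adjusted p = 0.00788), and this call was lost when FPKM were rescaled to TPM, which gives every library the same sum, with a log2 fold change of -0.11 and an adjusted p of 0.232. SLC7A6 shares its locus with SLC7A6OS on the opposite strand, which averaged 44.1 FPKM with JIB-04 and 28.5 FPKM with vehicle; the library kit kept strand, but no source used here states whether the counting used it.

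Within each library, both light chains were compared with their heavy chain, since a ratio of that kind does not depend on how the library was scaled. SLC7A5 was at 0.391 to 0.489 of the level of SLC3A2 in the JIB-04 libraries and at 1.15 to 1.22 of it in the vehicle libraries. The log2 ratio was lower by 1.39 with JIB-04 (difference -1.39, SE 0.08, exact two-sided permutation p = 0.0286, 0.0343 adjusted over 6 pairs). SLC7A6 was at 0.0265 to 0.0323 of SLC3A2 with JIB-04 and at 0.126 to 0.147 with vehicle, a log2 difference of -2.20 (SE 0.08, exact permutation p = 0.0286, adjusted 0.0343). The light chains also shifted against each other, with SLC7A5 at 13.0 to 18.2 times SLC7A6 with JIB-04 and 8.003 to 9.68 times with vehicle (log2 difference 0.80, SE 0.13, exact permutation p = 0.0286, adjusted 0.0343).

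A sum over all 6 light chains known to pair with SLC3A2 (SLC7A5, SLC7A6, SLC7A7, SLC7A8, SLC7A10 and SLC7A11) was formed after the values had been seen and is given as a description. The sum over SLC3A2 was 0.543, 0.535, 0.448 and 0.4999 in the JIB-04 libraries, against 1.41, 1.35, 1.39 and 1.39 in the vehicle libraries. Heavy-chain RNA thus exceeded summed light-chain RNA in every JIB-04 library and was below it in every vehicle library, in FPKM.

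**Figure D2:**
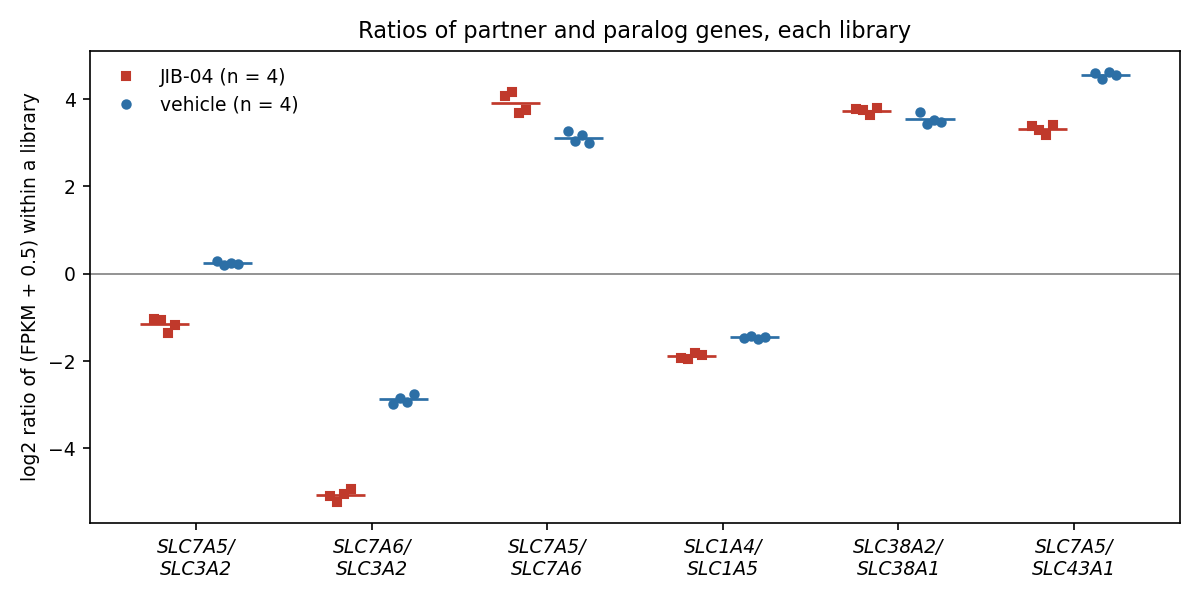
Log2 ratio of (FPKM + 0.5) between the genes of each of 6 pairs, in each JIB-04 library (red squares) and vehicle library (blue circles), with the group mean as a line. The SLC7A5/SLC3A2 ratio lies below 0 in all 4 JIB-04 libraries and above 0 in all 4 vehicle libraries, and the groups overlap for SLC38A2/SLC38A1.

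SLC43A1 encodes LAT3, which carries leucine and related amino acids down their gradient and needs neither a heavy chain nor an exchange partner (ENSG00000149150, chromosome 11, 57484534 to 57515786, minus strand). SLC43A1 had 72.1, 78.1, 71.4 and 68.1 FPKM in the JIB-04 libraries, against 21.9, 22.4, 19.8 and 19.8 FPKM in the vehicle libraries. The groups were well apart, and SLC43A1 stood at the sixth place in the order of levels with JIB-04 and at the last with vehicle. Its log2 fold change was 1.76 (SE 0.06, 95% interval 1.62 to 1.91, adjusted p = 2.46e-08). SLC7A5 and SLC43A1 carry overlapping substrates, and SLC7A5 was at 9.17 to 10.6 times SLC43A1 with JIB-04 and 22.4 to 25.1 times with vehicle (log2 difference -1.24, SE 0.06, exact permutation p = 0.0286, adjusted 0.0343).

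SLC38A2 and SLC38A1 encode sodium-coupled importers of small neutral amino acids such as alanine and glutamine. SLC38A2 (SNAT2, ENSG00000134294, chromosome 12, 46358189 to 46372867, minus strand) is known to be induced when amino acids are withdrawn. It had 819, 811, 792 and 820.4 FPKM in the JIB-04 libraries, against 387, 365, 402 and 426 FPKM in the vehicle libraries. The JIB-04 libraries varied little among themselves and all lay above the vehicle libraries. SLC38A2 averaged 811 ± 13.0 FPKM with JIB-04 and 395 ± 25.8 FPKM with vehicle (SD, n = 4 each), a log2 fold change of 1.04 (SE 0.05, adjusted p = 8.67e-08). With the GC trend removed the SLC38A2 difference was 0.65, under 2-fold.

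SLC38A1 (SNAT1, ENSG00000111371) lies on the same chromosome, from 46183063 to 46270017, minus strand. SLC38A1 had 59.6, 59.9, 63.2 and 58.6 FPKM with JIB-04, against 29.2, 33.3, 34.7 and 37.6 FPKM with vehicle. All JIB-04 libraries were above all vehicle libraries, and the log2 fold change was 0.84 (SE 0.07, adjusted p = 6.56e-06). SLC38A2 was at 12.5 to 14.0 times SLC38A1 with JIB-04 and 10.95 to 13.3 times with vehicle. These ranges overlapped, and the log2 difference of 0.20 (SE 0.07) did not pass (exact permutation p = 0.0571, also 0.0571 adjusted), which does not show that the genes moved equally.

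SLC1A5 and SLC1A4 encode sodium-dependent exchangers of neutral amino acids. SLC1A5 (ASCT2, ENSG00000105281, chromosome 19, 46774883 to 46788594, minus strand) also carries glutamine. It had 394, 406, 366 and 377 FPKM with JIB-04, against 363, 349, 362 and 337 FPKM with vehicle. JIB-04 library 3 and vehicle library 1 were almost level, and the log2 fold change was the smallest of the 10 in size, 0.13 (SE 0.04, 95% interval 0.03 to 0.23, adjusted p = 0.0249). The call was lost without JIB-04 replicate 1 (adjusted p = 0.0632), without JIB-04 replicate 2 (0.0691), without vehicle replicate 2 (0.0576), without vehicle replicate 4 (0.0618) and in limma with no variance trend (0.0665). Other scalings raised the SLC1A5 difference to 0.20 (median-ratio), 0.26 (quantile) and 0.29 (TPM), and removal of the GC trend gave 0.48.

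SLC1A4 (ASCT1, ENSG00000115902, chromosome 2, 64988477 to 65023865, plus strand) exchanges alanine, serine, cysteine and threonine. SLC1A4 had 103, 104, 104 and 103 FPKM in the JIB-04 libraries, against 131, 129, 128 and 124 FPKM in the vehicle libraries. All JIB-04 libraries were below all vehicle libraries, with a log2 fold change of -0.30 (SE 0.04, adjusted p = 4.02e-05); rescaled to TPM the value was -0.14 and still passed, with an adjusted p of 0.00700. SLC1A4 was at 0.257 to 0.284 of SLC1A5 with JIB-04 and at 0.354 to 0.370 of it with vehicle (log2 difference -0.43, SE 0.04, exact permutation p = 0.0286, adjusted 0.0343).

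SLC7A1 encodes CAT1, an importer of arginine and lysine that works without a heavy chain (ENSG00000139514, chromosome 13, 29509410 to 29595688, minus strand). SLC7A1 had 38.5, 38.7, 35.8 and 36.8 FPKM with JIB-04, against 51.1, 49.4, 50.6 and 47.6 FPKM with vehicle. The groups were apart, and the log2 fold change was -0.40 (SE 0.05, adjusted p = 4.74e-05), or -0.24 after rescaling to TPM.

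SLC6A9 encodes GlyT1, a sodium- and chloride-coupled importer of glycine best known from the nervous system (ENSG00000196517, chromosome 1, 43991500 to 44031467, minus strand). SLC6A9 had 13.2, 13.2, 10.9 and 10.7 FPKM in the JIB-04 libraries, against 31.4, 28.1, 28.6 and 27.0 FPKM in the vehicle libraries. The highest JIB-04 library was below the lowest vehicle library, and the log2 fold change of -1.23 (SE 0.09, 95% interval -1.44 to -1.03, adjusted p = 1.64e-06) was the largest fall of the 10. With the GC trend removed it was -0.93, under 2-fold.

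**Figure D3:**
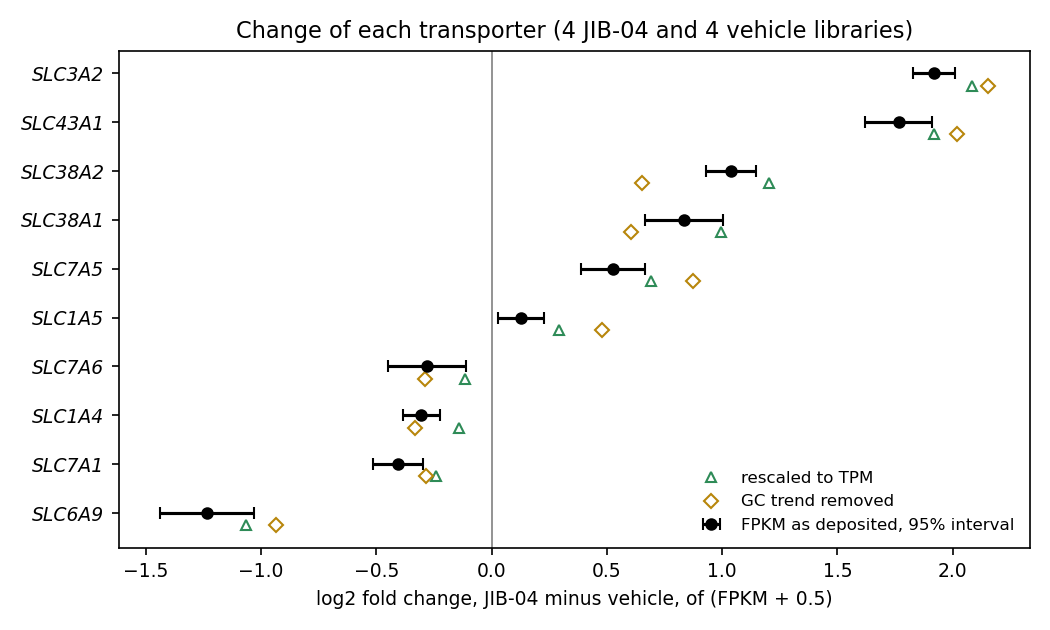
Log2 fold change of each gene, JIB-04 minus vehicle, from FPKM as deposited (black, with the 95% interval from limma), after rescaling to TPM (green triangles) and after removal of a trend on GC content (yellow diamonds). Every gene stays on its side of 0 under these settings; SLC3A2 at 1.92 and SLC43A1 at 1.76 lie farthest to the right and SLC6A9 at -1.23 farthest to the left.

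Summed over the 10 genes, FPKM were 3824 to 3937 in JIB-04 libraries, against 1964 to 2065 in vehicle libraries, a ratio of means of 1.94. This sum is not one of carriers alone, because it includes the heavy chain SLC3A2, which carries no amino acids itself. SLC3A2 made up 41.8 ± 1.56% of this sum with JIB-04 and 21.4 ± 0.668% with vehicle, whereas SLC7A5 made up 18.8 ± 1.23% with JIB-04 and 25.3 ± 0.869% with vehicle (SD, n = 4 each). SLC1A5, which was slightly higher in level, had a lower share, 9.95 ± 0.361% with JIB-04 and 17.6 ± 0.384% with vehicle, and the share of SLC38A2 was 20.9 ± 0.291% and 19.8 ± 1.49%. The order of levels with JIB-04 was SLC3A2, SLC38A2, SLC7A5, SLC1A5, SLC1A4, SLC43A1, SLC38A1, SLC7A6, SLC7A1 and SLC6A9, with no overlap between neighbours. With vehicle it was SLC7A5, SLC3A2, SLC38A2, SLC1A5, SLC1A4, SLC7A6, SLC7A1, SLC38A1, SLC6A9 and SLC43A1, where SLC3A2 overlapped SLC38A2 and SLC38A1 overlapped SLC6A9.

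**Figure D4:**
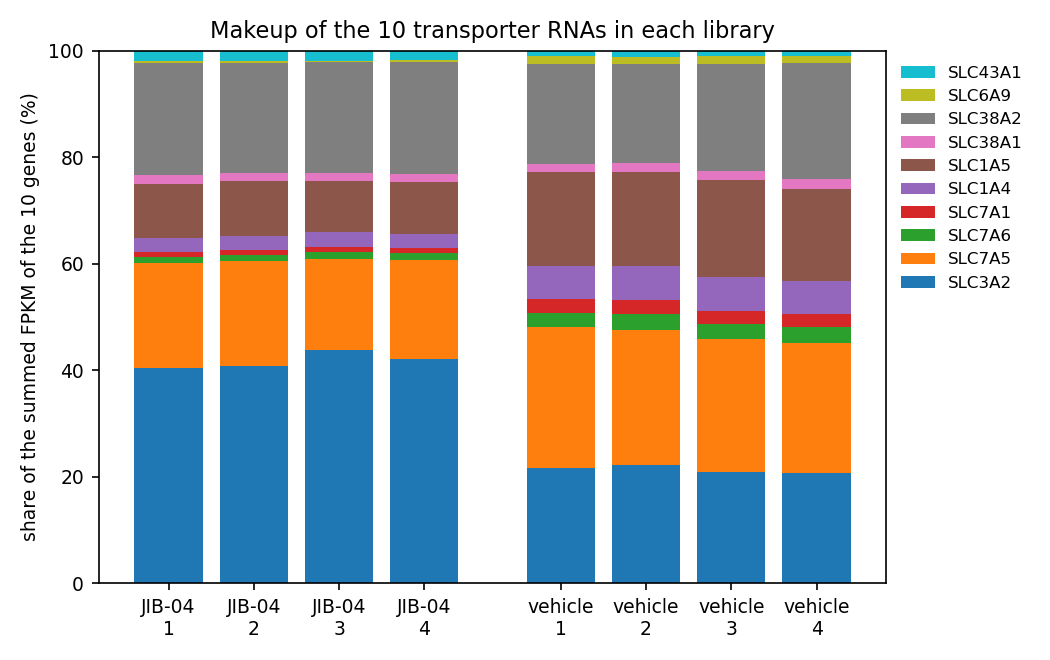
Share of each gene in the summed FPKM of the 10 genes, in percent, for the 4 JIB-04 libraries (left) and the 4 vehicle libraries (right). SLC3A2 (blue, at the base) takes 41.8% on average with JIB-04 and 21.4% with vehicle.

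The other genes that handle amino acids were described from 7 lists by their counts and medians, beside the 34.2% higher and 38.0% lower among all genes tested. Of 28 other plasma membrane transporters, 18 were too low to test, and of the 10 tested 4 were higher with JIB-04, 4 were lower and 2 did not pass. SLC6A15, a sodium-coupled importer of branched-chain amino acids and proline, averaged 19.1 FPKM with JIB-04 and 4.37 FPKM with vehicle (log2 fold change 2.03, SE 0.14, adjusted p = 1.09e-06). SLC7A11, the cystine-glutamate exchanger that also pairs with SLC3A2, averaged 33.6 FPKM with JIB-04 and 14.8 FPKM with vehicle (1.16, SE 0.09, adjusted p = 2.38e-06). Among the lower genes was the cationic amino acid carrier SLC7A2, which averaged 3.87 FPKM with JIB-04 and 12.8 FPKM with vehicle (-1.61). Its relative SLC7A3 averaged 0.540 FPKM with JIB-04 and 1.55 FPKM with vehicle (-0.99), and entered the test only through its level with vehicle. The median of this list, -0.11, turned positive under several settings.

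In the lysosomal list 4 of 8 tested transporters were higher with JIB-04 and the other 4 did not pass (median log2 fold change 0.27). With the GC trend removed 5 were higher and 1 was lower (median 0.60), in TPM 6 were higher (0.43), and with no filter the median was 0.15. SLC38A7, a lysosomal exporter of glutamine and asparagine, averaged 47.0 FPKM with JIB-04 and 11.2 FPKM with vehicle (log2 fold change 2.02). SLC36A1, a proton-coupled exporter, rose by 1.47 on the log2 scale and CTNS, the cystine exporter, by 1.17. SLC38A9, the arginine sensor of the lysosome, averaged 33.1 FPKM with JIB-04 and 25.1 FPKM with vehicle (0.39, SE 0.09, adjusted p = 0.00257).

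Of the mitochondrial carriers, 7 of 10 tested were lower with JIB-04 and 3 were higher (median -0.94). SLC25A13, the aspartate-glutamate carrier citrin, averaged 7.35 FPKM with JIB-04 and 26.2 FPKM with vehicle (log2 fold change -1.76), SLC25A29, a carrier of basic amino acids, had -1.65, and SFXN2 of the sideroflexin family had -1.56. SFXN3, its paralog, rose by 2.03 on the log2 scale.

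Of 19 genes of the amino acid response outside transport, 12 rose with JIB-04, 5 fell and 2 did not pass (median 0.75). Among the 12, NUPR1 averaged 1.56 FPKM with JIB-04 and 0.646 FPKM with vehicle, and entered the test only through its level with JIB-04. With a mean of at least 5 FPKM, 11 rose and 5 fell (median 0.65). ATF4 itself averaged 1239 ± 21.2 FPKM with JIB-04 and 694 ± 24.4 FPKM with vehicle (SD, n = 4 each; log2 fold change 0.84, SE 0.03, adjusted p = 4.35e-08); its activity is set largely by translation, which RNA does not measure. PPP1R15A, the subunit that directs dephosphorylation of eIF2α, averaged 1019 FPKM with JIB-04 and 36.1 FPKM with vehicle (4.80), and the stress transcription factors ATF3 (3.52) and DDIT3 (3.18) and the mTORC1 inhibitor DDIT4 (2.39) also rose. ASNS, the asparagine synthetase and a standard ATF4 target, had a log2 fold change of 0.28. SESN2 (1.89), TRIB3 (1.54) and CHAC1 (0.75), ATF4 targets of the same list, were higher with JIB-04. The serine synthesis enzymes PHGDH (-1.18) and PSAT1 (-0.52), also ATF4 targets, were lower with JIB-04. GCN2 itself, the eIF2α kinase encoded by EIF2AK4, was lower, at 19.8 FPKM with JIB-04 and 35.8 FPKM with vehicle (-0.84). The list also held the eIF2α kinases EIF2AK1 (-0.73) and EIF2AK2 (-0.80), which were lower, and EIF2AK3 (1.21), which was higher. ASNS, SESN2, TRIB3, CHAC1, PHGDH, PSAT1, NUPR1 and the kinases were named after their values were seen.

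Of 30 genes by which mTORC1 senses amino acids, 9 were higher with JIB-04, 13 were lower and 8 did not pass (median -0.19). In TPM and with the GC trend removed, 10 were higher and 11 lower in each, with medians of -0.03 and -0.0034. The 4 named by size of change were all higher: the Rag GTPases RRAGC (259 FPKM with JIB-04 and 29.8 FPKM with vehicle, log2 fold change 3.10) and RRAGD (2.16), the RRAGC regulator FLCN (2.76) and the Ragulator subunit LAMTOR3 (2.23). Of 9 listed regulators of transporter genes and proteins, EPAS1 was too low to test. Of the other 8, 7 were higher and NEDD4L did not pass (median 1.00). With the GC trend removed 6 were higher and 1 was lower. Whether these regulators act on the 10 genes was not tested. The higher regulators included TXNIP (2.88), AHR (2.51), MYCN (2.04) and NFE2L2 (1.00), and MYC averaged 235 FPKM with JIB-04 and 177 FPKM with vehicle (0.40, SE 0.05, adjusted p = 4.93e-05). Of 20 enzymes that act on imported amino acids, 5 were too low to test. Of the 15 tested, 5 passed as higher and 7 as lower (median -0.09). BCKDHB of branched-chain breakdown had a log2 fold change of 1.39, and SHMT1 (-1.30) and ASL (-1.14), enzymes of serine and arginine metabolism, were lower.

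**Figure D5:**
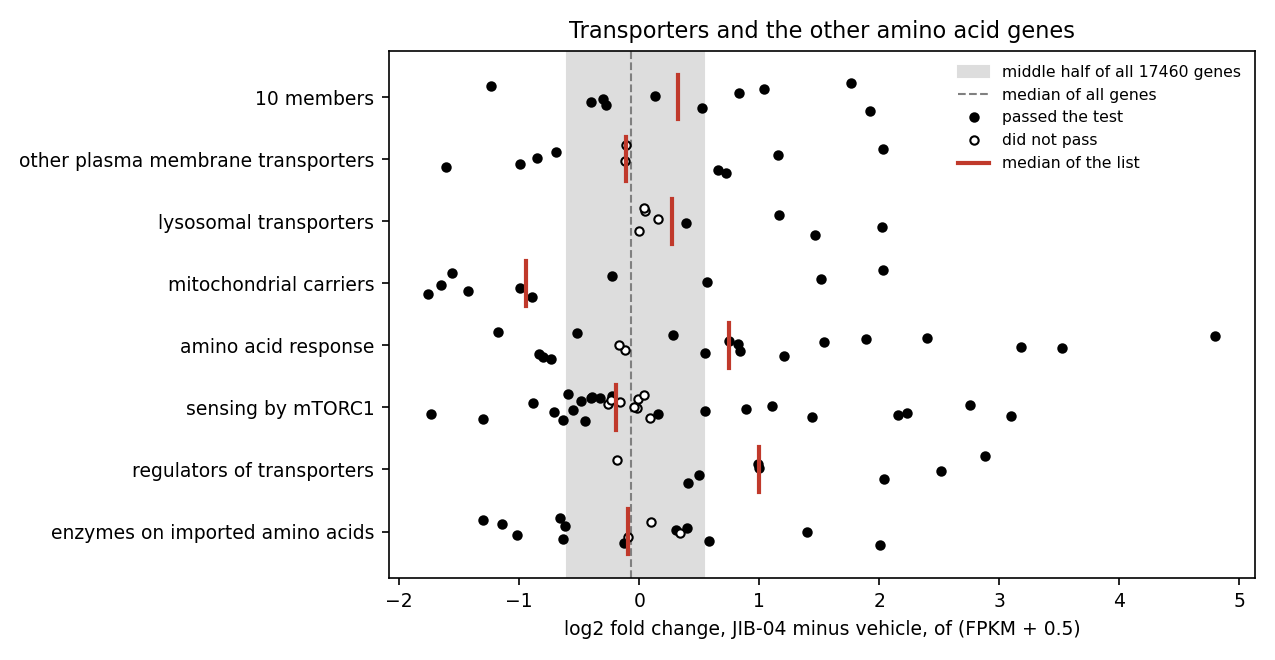
Log2 fold change, JIB-04 minus vehicle, of each tested gene in the set of 10 transporters and in 7 lists, filled where limma's adjusted p was under 0.05, with the median of each list in red, the median of all 17460 genes dashed and the middle 50% of all genes in grey. The 10 transporters have a median of 0.33, the mitochondrial carriers -0.94 and the regulators 1.00.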

How the data were processed

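RNA-seq was done on 8 polyA libraries of A673 cells (4 JIB-04, 4 vehicle). Per the labels and methods, the authors aligned reads to GRCh38 with GSNAP, processed alignments with SAMtools and calculated FPKM (fragment counts scaled to transcript length and to the mapped reads of the library) with Cufflinks; no source used here states the strand setting. The deposited FPKM were used without further normalization. The table held 66095 entries for 65975 identifiers; entries of the same identifier were summed (117 identifiers), 31 names turned into dates were restored, and 13 genes with a placeholder value were left out, none of them a member.

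The main test was limma 3.58.1 (R 4.3.3; eBayes with trend = TRUE, two-sided) on log2(FPKM + 0.5), over genes that averaged 1 FPKM or more; calls were made at an adjusted p (Benjamini-Hochberg) below 0.05. Fold changes on this scale understate those of low genes. Exact permutation tests over libraries served single genes and the 6 pair ratios. The fit was tested on simulated data. Low values of 0 can be failed estimates. Coordinates and GC content came from GENCODE release 29, and promoters from RefSeq. Python 3.11.15, numpy 2.4.6, pandas 2.3.3, scipy 1.17.1 and matplotlib 3.10.9 made the tables and figures.

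Every member was named. From each list up to 4 genes were named by size of log2 fold change among those that passed without overlap between groups, plus ATF4, SLC7A11, SLC38A9 and MYC; some items that these rules select are not reported here. The members and lists were chosen with earlier results of these data known. Alternatives covered pseudocount, filter, scaling, GC content, variance trend, analysis of variance, the replicate number as a block, and each library left out.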

Additional observations from a re-analysis of the deposited data

How the results depend on the processing

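The 10 members kept their direction under all alternatives, and 6 were called higher in the settings other than the 5 that lost SLC1A5; 4 were called lower in all but TPM, which lost SLC7A6 (-0.11). Over all alternatives log2 fold changes ranged from 1.90 to 2.15 for SLC3A2, 1.73 to 2.02 for SLC43A1, 0.65 to 1.202 for SLC38A2, 0.61 to 0.99 for SLC38A1, 0.49 to 0.87 for SLC7A5, 0.10 to 0.48 for SLC1A5, -0.33 to -0.11 for SLC7A6, -0.33 to -0.14 for SLC1A4, -0.42 to -0.24 for SLC7A1 and -1.28 to -0.93 for SLC6A9. Rescaling to TPM shifted the median gene by 0.16 on the log2 scale and called 6869 genes higher and 5289 lower, against 5964 and 6640 in FPKM as deposited. With the GC trend removed, the differences in log2 ratio were -1.28 for SLC7A5/SLC3A2, -2.44 for SLC7A6/SLC3A2, 1.16 for SLC7A5/SLC7A6, -0.81 for SLC1A4/SLC1A5, 0.047 for SLC38A2/SLC38A1 and -1.15 for SLC7A5/SLC43A1; the cause was not tested. The median of the other plasma membrane transporters was 0.43 in TPM, 0.27 with a mean of at least 5 FPKM and 0.01 with no filter. Without any 1 vehicle library it was 0.23 to 0.37. In this list SLC7A3 (0.540 FPKM with JIB-04 and 1.55 FPKM with vehicle) and SLC7A9 (1.52 and 0.468 FPKM) lie near the 1 FPKM filter. Leaving out a library can thus change which of them is tested. The median of the enzymes was 0.07 in TPM and -0.21 with the GC trend removed. With no filter 7 of the other plasma membrane transporters were higher, and the median of the mitochondrial carriers was -0.60.

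With the replicate number as a block, 5900 genes were higher and 6618 lower, and all 10 members kept their calls (SLC1A5 adjusted p = 0.0460 by limma). Deviations of same-numbered libraries correlated at 0.0823, -0.0580, 0.0256 and -0.00238, so the numbers were not taken to pair the libraries. Read depth per gene is unknown, so counting error could not be given.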

Other observations

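SLC7A5P1 and SLC7A5P2, the near copies of SLC7A5, were listed at lower levels than the gene. SLC7A5P1 had 25.9, 27.6, 15.7 and 16.8 FPKM in the JIB-04 libraries, against 8.80, 3.98, 3.16 and 5.09 FPKM in the vehicle libraries, with no overlap (log2 fold change 1.98, SE 0.30, limma adjusted p = 0.000221). SLC7A5P2 had 36.7, 36.9, 20.1 and 24.6 FPKM with JIB-04, against 23.5, 12.2, 15.0 and 13.4 FPKM with vehicle, and the groups overlapped (0.86, SE 0.25, adjusted p = 0.0107). JIB-04 libraries 1 and 2 were above libraries 3 and 4 for both pseudogenes and for SLC7A5 itself. The same order held for SLC1A5, SLC7A1, SLC6A9 and SLC43A1, and the reverse for SLC3A2 and SLC7A6, so it was not particular to these loci. The SLC7A5/SLC3A2 log2 ratio was -1.03 and -1.05 in JIB-04 libraries 1 and 2, and -1.36 and -1.18 in libraries 3 and 4. Mitochondrially encoded mRNA was 4.33% in JIB-04 libraries 1 and 2, and 3.60% and 3.74% in libraries 3 and 4. The cause of this split was not tested. How reads were shared among the 3 loci was not tested.

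SLC38A5, a relative of SLC38A1 and SLC38A2 that is coupled to proton exchange, was named after its values were seen. It averaged 209 FPKM with JIB-04 and 337 FPKM with vehicle (log2 fold change -0.69, adjusted p = 2.23e-06), lower where SLC38A1 and SLC38A2 were higher. SLC7A6OS, opposite SLC7A6, rose by 0.62 on the log2 scale (SE 0.06, adjusted p = 1.00e-05) where SLC7A6 fell by 0.28. No library stood apart by Dixon's test at the 95% level in the 32 groups looked at, 10 genes and 6 ratios in each treatment. The test looks for a single outlying library and cannot flag a group that splits into pairs. The split of the JIB-04 libraries given above is of that kind.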
